A study of Mus musculus with 9 samples.

Results

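mmu-miR-22-3p and mmu-miR-22-5p are the 2 mature arms of the mouse miR-22 hairpin. They were described here in 9 small RNA libraries from the tibialis anterior (TA), a hindlimb muscle, of 4 control mice (C1 to C4) and 5 mice bearing tumours of Lewis lung carcinoma (L1, L2, L3, L5 and L6, the LLC group), a mouse lung cancer cell line that causes cachexia, the wasting of muscle during cancer. The arms were taken by name, and are 2 of the 1915 mature miRNAs listed in the count tables, of which 932 had a count somewhere and 304 exceeded 32 counts in a library and were tested. Both arms were among the 304. miR-22-3p was selected on its abundance in these libraries, so its level and its rank are given as a description with no test.

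Mice of the LLC group had received 750000 LLC cells in each flank, control mice had received PBS in place of cells, and TA muscles were collected after 22 days. The sample labels give the strain as C57BL/6J and the age as 10 weeks, while the series design gives male C57BL/10 mice of 8 weeks, and these differences could not be resolved. The labels name no genetic change in either group. Subcutaneous growth of 1 cell line is a limited model of cachexia, and each library was made from RNA of a whole muscle, in which fewer cells of a type and less RNA per cell cannot be told apart. The authors left out one further LLC library (L4), which was not analysed here. Control libraries held 4992339 to 6548379 miRNA counts and LLC libraries 6216566 to 7833161. miRNAs known to be enriched in striated muscle were present in every library: the summed share of miR-133a-3p and miR-133b-3p was 2.68% ± 0.639 in the control group (SD, n = 4) and 2.21% ± 0.432 in the LLC group (SD, n = 5). In contrast, miR-206-3p, another muscle miRNA, had 5 counts in all libraries together and miR-1a-3p, usually prominent in muscle, had 62 to 171 counts per library. The ranks given here are therefore ranks of counts as deposited. The order of miRNAs in such counts also depends on how well each sequence is ligated, amplified and kept through adapter trimming, and the 5′ ends of miR-1a-3p and miR-206-3p resemble the start of a small RNA 3′ adapter. The part of these steps in any count, rank or share of all counts given here was not tested.

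A miRNA hairpin is cut by Drosha and Dicer into a short duplex, and usually one strand is kept in an Argonaute protein while the other is degraded. The kept strand pairs with target mRNAs mainly through its seed, bases 2 to 8. miR-22-3p is the usual guide strand of miR-22 and is known as an abundant miRNA of cardiac and skeletal muscle with a role in hypertrophic growth of the heart.

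The mature sequences of both arms are shown with those of the miR-10 pair, since miR-10b-5p was the miRNA that competed with miR-22-3p for the first rank. They are from RefSeq (GRCm38.p6), written 5′ to 3′ with the seed in capitals.
mmu-miR-22-3p: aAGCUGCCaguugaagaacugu
mmu-miR-22-5p: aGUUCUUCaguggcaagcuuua
mmu-miR-10b-5p: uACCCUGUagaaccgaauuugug
mmu-miR-10a-5p: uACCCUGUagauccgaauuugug
miR-10a-5p and miR-10b-5p share their seed and differ by 1 base. In contrast, among the 1623 listed miRNAs that matched RefSeq by name, none shared bases 2 to 8 with either arm of miR-22 except the arm itself. The reads had been mapped with no mismatch allowed in the first 8 bases and all best alignments kept. No other matched mature miRNA began with the first 8 bases of either arm, while 1, miR-146a-3p, held those of miR-22-5p further inside its sequence and had no count in any library.

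The hairpin Mir22 is 95 bases long and lies on the plus strand of chromosome 11, at chr11:75463716-75463810 (GRCm38). It is shown because the ratio of its arms is one of the measurements below, with miR-22-5p (bases 19 to 40) and miR-22-3p (bases 57 to 78) in capitals.
Mir22: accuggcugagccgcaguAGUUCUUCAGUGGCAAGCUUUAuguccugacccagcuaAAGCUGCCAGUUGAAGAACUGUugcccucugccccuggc
In the genome miR-22-5p occupies chr11:75463734-75463755 and miR-22-3p chr11:75463772-75463793, with 16 bases between them. GENCODE M21 places the hairpin in exon 2 of Mir22hg, the noncoding host gene of miR-22, and also in exon 2 of a noncoding transcript of Tlcd2 on the same strand.

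miR-22-3p was the most abundant miRNA on average, with 20.3% of all counts over the 9 libraries, followed by miR-10b-5p with 18.0%. The mean share of miR-22-3p was 2.86 times that of the third miRNA, miR-486a-5p, an erythroid and muscle miRNA that took 7.10% and had the same counts as miR-486b-5p in every library. Below these came miR-10a-5p with 6.25%, miR-143-3p, typical of smooth muscle, with 6.08%, and miR-26a-5p with 5.32%. miR-10b-5p exceeded miR-486a-5p in 9 of 9 libraries and miR-26a-5p exceeded the next, miR-27b-3p, in 9 of 9. The order between them was less fixed, since miR-10a-5p exceeded miR-143-3p in 3 of 9 libraries and miR-143-3p exceeded miR-26a-5p in 5 of 9.

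By library, miR-22-3p held first rank in 5 of 9 (C1, C2, C4, L3 and L6) and second rank in 4 (C3, L1, L2 and L5). In those 4 the first rank was taken by miR-10b-5p. Thus the description of miR-22-3p as the most abundant miRNA held for the mean and for 3 control and 2 LLC libraries. The closest pair was in L2, with 1193174 counts of miR-22-3p and 1197282 of miR-10b-5p.

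miR-22-3p made up 28.3% of the counts in C1, 24.0% in C2, 17.9% in C3 and 20.2% in C4. In the LLC group its share was 14.8% in L1, 19.2% in L2, 23.4% in L3, 10.7% in L5 and 24.2% in L6. The groups overlapped, although L1 and L5 lay below every control library. The mean was 22.6% ± 4.55 in the control group (SD, n = 4) and 18.4% ± 5.73 in the LLC group (SD, n = 5), a difference of -4.14 percentage points (LLC minus control) that was within the spread between mice (exact permutation test, two-sided here and below, p = 0.317, adjusted p = 0.423 over the 4 such tests of miR-22; the smallest p that 4 against 5 libraries allow is 0.0159). Without C1 the difference was -2.25 points, and without L5 it was -2.20. The share did not follow the size of the library (r = 0.172 over 9 libraries, a description).

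miR-22-5p was a minor species, ranking 82nd of 932 by its mean share and between 77th and 85th in single libraries. Its share of the counts was 0.0277% in C1, 0.0257% in C2, 0.0206% in C3 and 0.0210% in C4. In the LLC group it was 0.0204% in L1, 0.0227% in L2, 0.0274% in L3, 0.0181% in L5 and 0.0253% in L6. Again L1 and L5 were the lowest and the groups overlapped, with means of 0.0237% ± 0.00351 (SD, n = 4) and 0.0228% ± 0.00371 (SD, n = 5) and no difference beyond the spread between mice (exact permutation test, p = 0.651, adjusted p = 0.651). The depth behind these shares was 1047 to 1983 counts per library for miR-22-5p and 709928 to 1894381 for miR-22-3p.

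**Figure D1:**
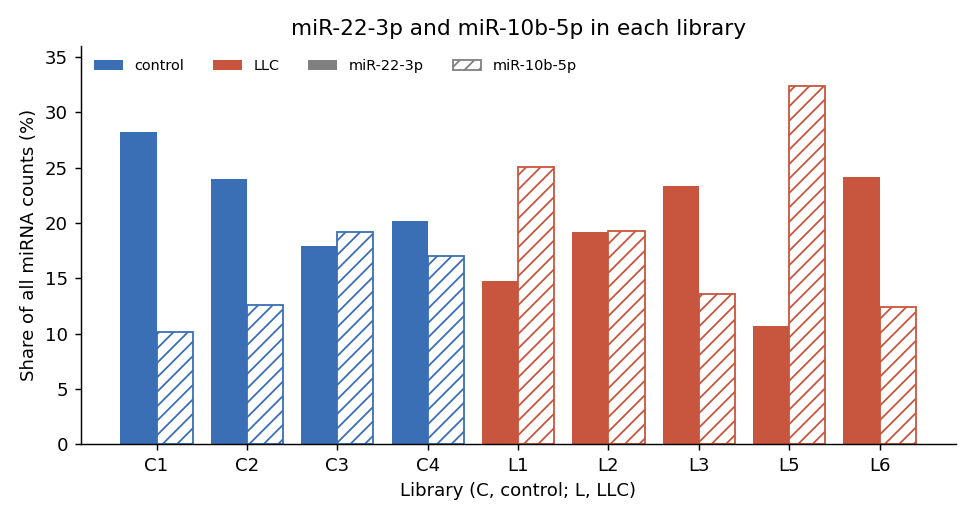
Share of all miRNA counts (percent, linear axis from 0) of miR-22-3p (filled bars) and miR-10b-5p (hatched bars) in each control (blue) and LLC (red) library. The bars of miR-22-3p run from 10.7% in L5 to 28.3% in C1 and those of miR-10b-5p from 10.1% in C1 to 32.4% in L5, and the hatched bar is the taller one in C3, L1, L2 and L5.

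The libraries with little miR-22-3p were those with much miR-10b-5p. The share of miR-10b-5p was 10.1% in C1, 12.6% in C2, 19.2% in C3 and 17.0% in C4, and 25.1% in L1, 19.3% in L2, 13.6% in L3, 32.4% in L5 and 12.4% in L6. L5 and L1, the lowest in miR-22-3p, were the highest in miR-10b-5p, and C1 was at the opposite end of both. As a consequence there were 2.79 counts of miR-22-3p per count of miR-10b-5p in C1 and 0.329 in L5, an 8.47-fold range. The mean of this ratio was 1.70 ± 0.834 in the control group (SD, n = 4) and 1.12 ± 0.703 in the LLC group (SD, n = 5). The sum of both miRNAs varied far less, at 37.3% ± 0.776 of the counts of control libraries and 39.0% ± 2.64 of those of LLC libraries, with a range of 36.6% to 43.1% over the 9 libraries.

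Shares of one total are tied to each other, so the share of miR-22-3p was also computed among the counts other than miR-10b-5p. This share was 31.4% in C1, 27.4% in C2, 22.2% in C3 and 24.3% in C4. In the LLC group it was 19.7% in L1, 23.8% in L2, 27.0% in L3, 15.8% in L5 and 27.6% in L6. The order of the libraries was close to that of the plain share, with C1 at the top and L5 at the bottom. It was lower where miR-10b-5p was higher, with r = -0.979 and Spearman's rho = -0.983 over the 9 libraries, both given as descriptions. The relation did not rest on the 2 libraries farthest from the median miR-10b-5p share, L5 and L1, since r was -0.962 without them (n = 7). It was present in each group taken alone, with r = -0.984 over the 4 control and -0.999 over the 5 LLC libraries. This relation was named with earlier results of the same libraries known and is not independent evidence of them. After TMM scaling miR-10b-5p had the profile most opposed to miR-22-3p among 108 miRNAs compared. No p-value is therefore given for the relation. Between groups, the share outside miR-10b-5p was 26.3% ± 4.04 in the control (SD, n = 4) and 22.8% ± 5.01 in the LLC group (SD, n = 5), and the difference of -3.56 points was within the spread between mice (exact permutation test, p = 0.317, adjusted p = 0.423). It was -1.85 points without C1 and -1.81 without L5.

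**Figure D2:**
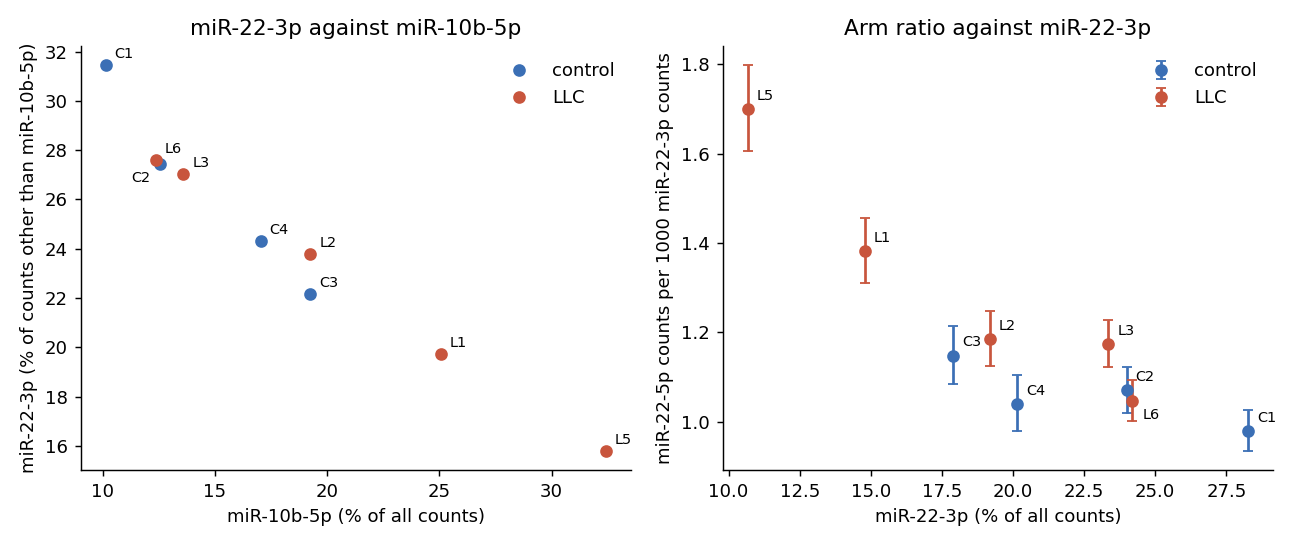
Left, share of miR-22-3p among the counts other than miR-10b-5p (percent) against the share of miR-10b-5p among all counts (percent); right, miR-22-5p counts per 1000 miR-22-3p counts, with 95% Wilson intervals, against the share of miR-22-3p among all counts (percent). Each labelled point is 1 library; on the left the points go from 31.4% in C1 to 15.8% in L5, and on the right L5 (1.70) and L1 (1.38) lie above all others.

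Group differences were then estimated with edgeR's quasi-likelihood test on all 304 miRNAs, after TMM scaling, which sets the libraries to a common level for the bulk of miRNAs. On this scale (CPM, counts per 1000000) miR-22-3p was at 247789 CPM in C1, 208110 in C2, 187956 in C3 and 198804 in C4. In the LLC group it was at 168673 CPM in L1, 194360 in L2, 217694 in L3, 140137 in L5 and 217169 in L6. As with the shares, L1 and L5 were below every control library and L3 and L6 within the control range. The group means were 210665 ± 26084 CPM (SD, n = 4) and 187606 ± 33304 CPM (SD, n = 5). The log2-fold change (LLC against control) was -0.17 with a standard error of 0.175, a 95% interval of -0.54 to 0.21 and an adjusted p = 0.599 (edgeR).

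miR-22-5p was steadier after TMM scaling, at 243 CPM in C1, 223 in C2, 216 in C3 and 207 in C4, and 233 in L1, 230 in L2, 256 in L3, 238 in L5 and 227 in L6. The highest and the lowest library differed 1.24-fold, against 1.77-fold for miR-22-3p. L5, the lowest library for miR-22-3p, was in the upper part of the range for miR-22-5p. The group means were 222 ± 15.2 CPM (SD, n = 4) and 237 ± 11.2 CPM (SD, n = 5), with a log2-fold change of 0.09, a standard error of 0.103, a 95% interval of -0.13 to 0.31 and an adjusted p = 0.630 (edgeR).

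With a call defined as an adjusted p of at most 0.05 and a change of at least 1.5-fold, 0 of the 2 arms were called, where 0% of the 304 miRNAs were called by edgeR. At an unadjusted p of at most 0.05, 0 of the 2 arms passed, against 50 of 304 (16.4%). For 0 of the 2 arms did the control and LLC libraries not overlap, against 18 of 304 (5.92%). DESeq2 called 7 miRNAs and limma-voom called 0, with 54 and 46 at an unadjusted p of at most 0.05, and neither arm was among those called. The intervals leave room for a decrease or a small increase of miR-22-3p, and a p above the threshold does not show that the groups were alike. Of the 304 miRNAs, 89 had a lower log2-fold change than miR-22-3p, and the median of all was -0.02.

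The sign of these small differences was examined under other scalings. For miR-22-3p the log2-fold change was -0.13 with relative log expression (RLE) factors, -0.05 with upper-quartile factors, -0.29 with library totals, -0.21 with totals without miR-10b-5p, -0.19 with totals without the 5 most abundant miRNAs and -0.05 with miR-133a-3p and miR-133b-3p as the reference. It was thus below 0 under each of these. For miR-22-5p the values in the same order were 0.14, 0.21, -0.057, 0.04, 0.07 and 0.21, and so its sign turned with library totals. The scaling moved all miRNAs together, since the median of the 304 was 0.02, 0.10, -0.17, -0.07, -0.04 and 0.08 in that order. Relative to this median miR-22-3p was lower and miR-22-5p was higher under TMM and each of the other 6 scalings, as 88 to 94 of the 304 lay below miR-22-3p and 195 to 197 below miR-22-5p. A shift common to all miRNAs leaves such positions nearly unchanged, so the scalings are not separate evidence of them.

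**Figure D3:**
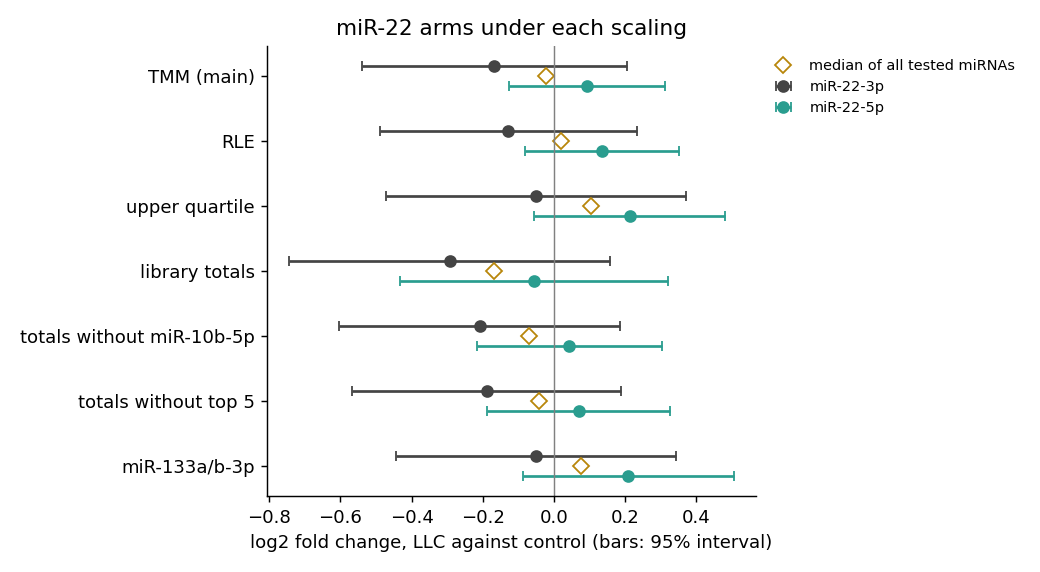
Log2-fold change (LLC against control) of miR-22-3p and miR-22-5p under 7 scalings, with 95% intervals, and the median of the 304 tested miRNAs. Every interval of either arm includes 0. miR-22-3p lies below the median under each scaling, from -0.29 with library totals to -0.05 with upper-quartile factors.

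Relative to the muscle miRNAs miR-133a-3p and miR-133b-3p, which act in muscle proliferation and differentiation, miR-22-3p varied little in the control group and more in the LLC group. There were 8.49 ± 0.444 counts of miR-22-3p per count of miR-133 in the control group (SD, n = 4, range 8.03 to 9.09) and 8.20 ± 1.37 in the LLC group (SD, n = 5, range 6.08 to 9.86). L5 was again the lowest and L3 the highest. For miR-22-5p there were 9.0 ± 0.784 counts per 1000 counts of miR-133 in the control group (SD, n = 4) and 10.4 ± 1.03 in the LLC group (SD, n = 5).

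Of the 9 listed miRNAs enriched in striated muscle, 7 were tested, and 0 of these were called or had an unadjusted p of at most 0.05 in edgeR. The log2-fold change was below 0 for 6 and above 0 for 1, with a median of -0.14, beside -0.17 for miR-22-3p and -0.02 for all 304. The values were -0.12 for miR-133a-3p, -0.14 for miR-133b-3p, -0.07 for miR-378a-3p, an intronic miRNA of the metabolic regulator gene Ppargc1b, and 0.20 for miR-486a-5p. They were -0.40 for miR-208b-3p and -0.53 for miR-499-5p, both encoded within myosin heavy chain genes, and -0.26 for miR-1a-3p, which rests on the few counts given above.

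The ratio of the arms was far to the side of miR-22-3p in every library. There were 0.979 counts of miR-22-5p per 1000 counts of miR-22-3p in C1 (95% Wilson interval 0.935 to 1.03), 1.07 in C2, 1.15 in C3 and 1.04 in C4. In the LLC group there were 1.38 in L1 (1.31 to 1.46), 1.19 in L2, 1.17 in L3, 1.70 in L5 (1.61 to 1.80) and 1.05 in L6. Thus 4 of the 5 LLC libraries were above every control library and L6 was within the control range. The intervals cover counting error only, as reads amplified by PCR without molecular identifiers are not independent molecules. The mean was 1.06 ± 0.0703 in the control group (SD, n = 4) and 1.30 ± 0.254 in the LLC group (SD, n = 5), a difference of 0.238 (exact permutation test, p = 0.0476) that did not pass the correction over the 4 tests (adjusted p = 0.190). On the log2 scale the difference was 0.27 (exact permutation test, p = 0.0635). The size of the difference rested in part on L5, without which it was 0.137.

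The libraries with a high ratio of arms were also those with much miR-10b-5p (r = 0.942 over 9 libraries) and little miR-22-3p (r = -0.890), both given as descriptions, since miR-22-3p is the denominator of the ratio and part of the same total. After TMM scaling the libraries differed 1.24-fold at most in miR-22-5p and 1.77-fold in miR-22-3p, and in share of all counts they differed 1.53-fold and 2.65-fold. Whether the composition of the libraries plays a part in the ratio was not tested. Over all 9 libraries the arms were not detectably correlated after TMM scaling (r = 0.0981, exact permutation of the pairings, n = 9, p = 0.805; rho = 0.25, exact permutation, p = 0.521). Within groups r was 0.895 over the 4 control and 0.131 over the 5 LLC libraries. Leaving out L5 and C1, the libraries farthest from the median, gave r = 0.229 (exact permutation, n = 7, p = 0.624). With scaling by library totals alone r was 0.920 (exact permutation, n = 9, p = 0.000174), so this relation depended on the scaling.

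The arms of miR-22 were more unequal than those of most hairpins. Among 74 hairpins with both arms tested and no count of 0, the pooled number of minor-arm counts per 1000 major-arm counts was 1.15 for miR-22 and had a median of 96.6. It was lower for 5 hairpins, namely miR-10a with 0.103, miR-191 with 0.257, miR-125a with 0.924, miR-133a with 0.939 and miR-127 with 0.995. These 74 leave out hairpins whose minor arm had few counts. Over all 185 hairpins with both arms listed and the major arm tested, 50 had a lower ratio than miR-22, 45 of them outside the 74, and the median was 16.2. They included miR-10b with 0.0198 and miR-143 with 0.0122. The LLC increase of the ratio was not particular to miR-22, because 18 of the 74 hairpins had a larger increase on the log2 scale. Of the 25 hairpins with at least 100 minor-arm counts in every library, 6 had a larger increase and 0 had a lower pooled ratio than miR-22. Of these 25, 1 had an exact permutation p of at most 0.05. The median difference over the 74 was -0.02, 36 were positive, 9 had an exact permutation p of at most 0.05, and for 1 (miR-28a) the groups did not overlap.

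**Figure D4:**
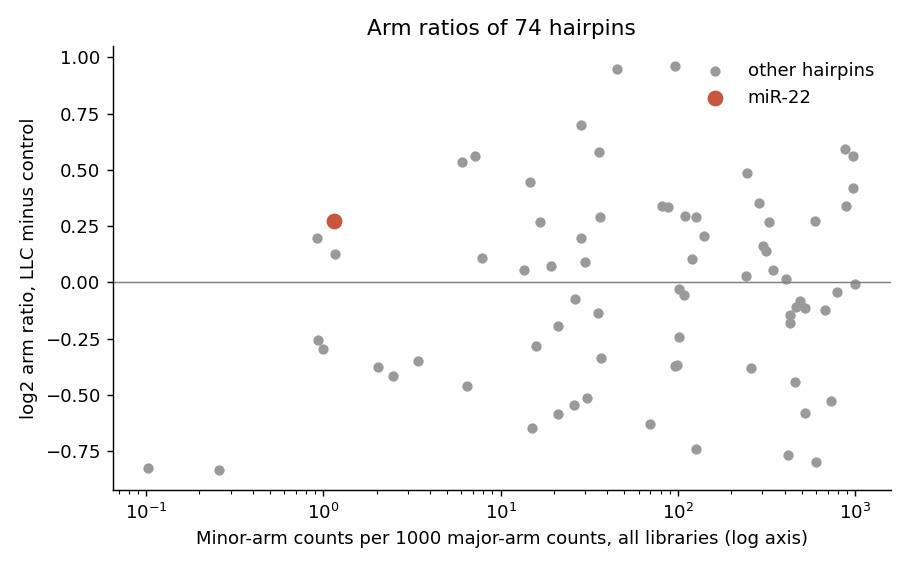
Minor-arm counts per 1000 major-arm counts, pooled over the 9 libraries (log axis), against the LLC minus control difference of the log2 ratio, for 74 hairpins with both arms tested. miR-22 (red) lies in the left part at 1.15, with a difference of 0.27 that is exceeded by 18 other hairpins.

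Over the 109 miRNAs with at least 100 CPM on average, the spread of miR-22-3p between libraries was above the middle, with an SD of log2 CPM of 0.24, place 66 from the smallest, beside a median of 0.20. That of miR-22-5p was 0.09, the third smallest. With scaling by library totals the SDs were 0.43 (place 93) and 0.22 (place 27), beside a median of 0.31.

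The profiles most like that of miR-22-3p over the 9 libraries, by the correlation of log2 CPM with each of 108 others, were those of miR-423-3p (r = 0.925), miR-301a-3p (r = 0.902) and miR-136-5p (r = 0.896). Those most opposed were miR-10b-5p (r = -0.972), miR-204-5p (r = -0.969) and miR-10a-5p (r = -0.952). In all, 10 miRNAs had an r of at least 0.8 and 13 an r of at most -0.8. These are descriptions over libraries that share 1 scaling. The mature sequences of the 4 of these not shown above are given for comparison, from RefSeq with the seed in capitals, and none shares a seed with miR-22-3p.
mmu-miR-423-3p: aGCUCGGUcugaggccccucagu
mmu-miR-301a-3p: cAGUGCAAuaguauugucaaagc
mmu-miR-136-5p: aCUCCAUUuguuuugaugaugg
mmu-miR-204-5p: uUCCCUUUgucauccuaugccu
The 3 alike had a lower mean in the LLC group, as miR-22-3p had. miR-423-3p was at 194 CPM in the control and 166 in the LLC group (log2-fold change -0.23), miR-301a-3p at 197 and 161 (-0.29) and miR-136-5p at 618 and 493 (-0.32). The 3 opposed had a higher mean, with miR-204-5p at 255 and 331 CPM (0.37), miR-10b-5p at 141921 and 228894 (0.69) and miR-10a-5p at 51406 and 76071 (0.57). None of the 6 was called in the main edgeR fit. The edgeR fit with no filter on low counts called miR-10b-5p (log2-fold change 0.72, adjusted p = 0.0043). It also called miR-10a-5p (0.60, adjusted p = 0.019), but none of the others. For miR-22-5p the nearest profile was that of let-7d-3p (r = 0.771, 368 and 459 CPM), followed by miR-19b-3p (r = 0.533) and miR-21a-5p (r = 0.524), and the most opposed were miR-541-5p (r = -0.626), miR-125a-5p (r = -0.597) and miR-486a-3p (r = -0.561). No miRNA was beyond 0.8 in either direction.

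**Figure D5:**
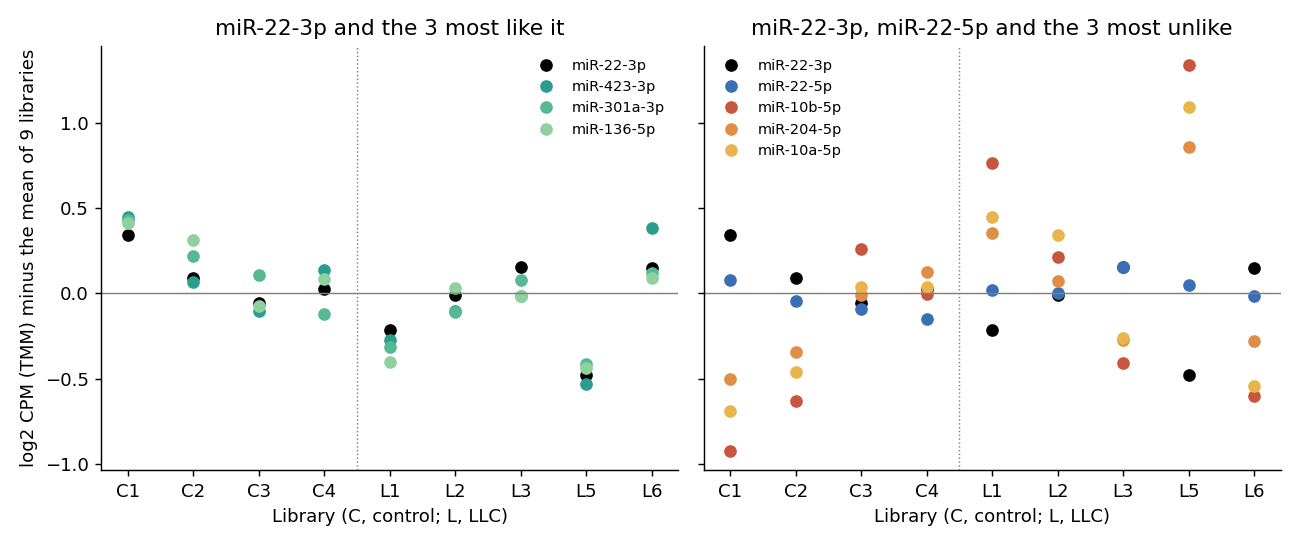
Log2 CPM after TMM scaling minus the mean of the 9 libraries, by library, for miR-22-3p with the 3 miRNAs most like it (left) and for both arms with the 3 most opposed to miR-22-3p (right). Points are single libraries; miR-22-3p and the 3 most like it are lowest in L5, where miR-10b-5p, miR-204-5p and miR-10a-5p are highest.

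Markers of the cell types in a whole muscle were set beside these values. The summed level of the muscle fibre markers (4 of 5 tested, 4 lower in the LLC group, 0 with an unadjusted p of at most 0.05) was 21478 to 35211 CPM of the library total in the control group and 17579 to 28133 in the LLC group. All sums of markers are in CPM of the library total, while the directions and p-values are from edgeR after TMM scaling. On library totals L5 and L1, the lowest in miR-22-3p, had the lowest sums of the fibre, erythroid, leukocyte and endothelial markers. L5 and L1 also had the lowest TMM factors (0.762 and 0.876), so this order of the sums is tied to the scale used. Over the 9 libraries the summed level had a correlation with miR-22-3p of 0.907 for fibre and 0.864 for erythroid markers. The values were 0.910 for leukocyte, 0.768 for endothelial, 0.123 for smooth muscle and -0.0958 for fibroblast markers. These are descriptions over shared libraries, and only miR-22-3p (log2 CPM) was TMM-scaled in them. With both sides TMM-scaled, r with miR-22-3p was lower for the main fibre markers, at 0.623 for miR-133a-3p and 0.441 for miR-133b-3p. The smooth muscle markers (2 of 2 tested, 1 higher and 1 lower) summed to 50061 to 62009 CPM and 50313 to 83045 CPM, and the endothelial markers (2 of 2, both lower, 1 with an unadjusted p of at most 0.05) to 29895 to 32321 CPM and 20180 to 32158 CPM. The erythroid markers (3 of 3, all lower, 3 with an unadjusted p of at most 0.05) summed to 217 to 371 CPM and 80.9 to 236 CPM. Leukocyte markers (5 of 5, 4 higher and 1 lower, 2 with an unadjusted p of at most 0.05) summed to 658 to 913 CPM and 486 to 768 CPM. The 1 lower, miR-150-5p, was the most abundant of the 5, with means of 492 and 377 CPM after TMM scaling, and weighs most in this sum. Fibroblast markers (3 of 3, 1 higher and 2 lower, 1 with an unadjusted p of at most 0.05) summed to 1965 to 2599 CPM and 1714 to 2513 CPM. The liver marker was at most 0.153 CPM in any library and the 5 epithelial markers summed to at most 6.41 CPM, and neither list had a tested member. None of these miRNAs was called in the edgeR test of the 304, but DESeq2 called the leukocyte marker miR-223-3p (log2-fold change 0.74) and the erythroid marker miR-451a (-0.73). The edgeR fit with no filter on low counts called the same pair with miR-144-3p and miR-144-5p, the fit without L1 called miR-223-3p, and the fit without L3 called the 3 erythroid markers. Their part in the variation of miR-22 was not tested.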

How the data were processed

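Small RNA of TA muscle from 9 mice was sequenced on 1 lane, and the authors mapped the reads to miRBase 21 with Bowtie. The deposited files hold raw counts per mature miRNA, whole numbers with no normalization, 1 file per library; the control and LLC groups follow the sample labels. The 304 of 1915 miRNAs that exceeded 32 counts in any library were tested with edgeR 4.0.16 (R 4.3.3; TMM, quasi-likelihood test, Benjamini-Hochberg adjustment). DESeq2 1.42.0, limma-voom 3.58.1, other scalings and filters and leave-one-out fits were alternatives. Shares and ratios were compared by exact permutation tests over libraries, whose p-values reflect the spread between mice. Libraries with the same number did not deviate together (mean r = -0.190). No 2 libraries were copies. The profiles named were the 3 highest and 3 lowest correlations with each arm. The members, lists and relations were chosen with earlier results of these data known.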

Additional observations from a re-analysis of the deposited data

How the results depend on the processing

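The log2-fold change of miR-22-3p was negative under 20 of 20 alternatives (-0.22 to -0.08 when 1 library was left out), and in none did it pass the threshold. That of miR-22-5p was positive under 19 of 20 (0.08 to 0.14 when 1 library was left out), the exception being library totals (-0.057). Its share difference turned without C1 or L5 (range -0.00207 to 0.000399 percentage points when 1 library was left out). The correlation of the arms ranged from -0.0948 to 0.402 when 1 library was left out, and was 0.920 with library totals. The difference in the ratio of the arms was 0.137 to 0.300 when 1 library was left out, and the relation of miR-22-3p with miR-10b-5p had r of -0.992 to -0.969. Calls over all tested miRNAs, 0 in edgeR as reported, were 7 with DESeq2, 22 with no filter on low counts, and 0 to 8 when 1 library was left out (1 without L1 and 8 without L3). The causes of these shifts were not tested.

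Libraries of the 2 groups share numbers, and those with the same number did not deviate together (mean r = -0.190, highest -0.0899). So few pairs cannot show whether the numbers pair the mice, and the main fit used no pairing. With a replicate block the log2-fold changes were -0.15 and 0.08, with 0 calls and 15 miRNAs at an unadjusted p of at most 0.05. At 1047 to 1983 counts of miR-22-5p per library, counting error is a part of the small spread of this arm after TMM scaling (CV 6.86% in the control and 4.72% in the LLC group), whereas miR-22-3p had at least 709928 counts.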
